A study of Homo sapiens with 12 samples.

Results

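The 10 genes described here code for the NF-kappaB transcription factor subunits (NFKB1, NFKB2, REL, RELA and RELB) and for proteins of the IkappaB inhibitor family that bind them (NFKBIA, NFKBIB, NFKBIE, NFKBID and BCL3). NFKBID and BCL3 are atypical nuclear members of that family. They were taken by gene symbol from tables that held 43828 gene places, and all 10 were found in each of the 12 libraries. The cells were CCRF-CEM, a human T lymphoblast leukemia line, either as the SLFN11-positive wild-type parent or as cells labelled SLFN11 knockout. Each genotype was given DMSO, the solvent, or 100 nM camptothecin for 4 h, with 3 libraries in each of the 4 groups. Camptothecin traps topoisomerase I on DNA, which breaks DNA during replication and transcription. SLFN11 is a protein recruited to stressed replication forks, and cancer cells that have it are known to be more sensitive to DNA-damaging drugs. Neither the method used to knock out SLFN11 nor its clonality is given in the sources used here. They also leave unsaid whether the libraries of a group were separate cultures, and the p-values therefore reflect the variation among these libraries alone, which may be technical. The comparison asks how these genes respond to DNA damage with and without SLFN11.

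NF-kappaB acts as dimers of its subunits. In resting cells most dimers are held in the cytoplasm by inhibitors with ankyrin repeats, and the IKK kinases release them by marking the inhibitor for destruction. In the canonical arm the p50 product of NFKB1 pairs with RELA or REL, whereas in the non-canonical arm the p52 product of NFKB2 pairs with RELB. Several of these genes, among them NFKBIA, NFKB2, RELB and BCL3, are known targets of NF-kappaB itself. In T cells the pathway is best known downstream of the T cell receptor and of TNF family receptors, and DNA breaks can also reach IKK.

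Of the 10 genes, 8 had an entry in the RefSeq promoter table (build GRCh38.p14), with 15 annotated start sites between them; RELB and NFKBIE are only named here. The 250 bases before each start were searched on both strands for the 10-letter kappaB consensus, the DNA motif that NF-kappaB dimers bind. It matched in 8 of the 15 windows and in 6 of the 8 genes (REL, NFKB1, NFKB2, NFKBIA, NFKBIB and NFKBID), against 10.0% of all 35116 windows and 11.8% of all 27305 genes in that table. The 8 genes have more windows per gene than the whole table, so the gene shares are not on an equal footing. Known targets of NF-kappaB are also among the 8. No match was found in the windows of RELA and BCL3, which says only that these letters are not there. The 10 stretches that follow hold all matches and are shown to give their letters and place; being chosen by the match, they are alike by construction. Each runs 5′ to 3′ on the gene's strand, and capitals mark the match or 2 matches that overlap.
REL, chr2:60881518-60881547, plus strand, 47 bases before the start: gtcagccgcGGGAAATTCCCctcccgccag
NFKB1, chr4:102501300-102501329, plus strand, 49 bases before the start: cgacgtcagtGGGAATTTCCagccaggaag
NFKB2, chr10:102394462-102394491, plus strand, 107 bases before the start: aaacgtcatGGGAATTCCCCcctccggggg
NFKB2, chr10:102394490-102394519, plus strand, 78 bases before the same start: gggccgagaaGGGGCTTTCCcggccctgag
NFKB2, chr10:102395519-102395548, plus strand, 176 bases before another start: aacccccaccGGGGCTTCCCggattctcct
NFKB2, chr10:102395674-102395703, plus strand, 21 bases before that other start: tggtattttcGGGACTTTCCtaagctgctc
NFKBIA, chr14:35404811-35404840, minus strand, 81 bases before the start: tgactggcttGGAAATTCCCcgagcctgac
NFKBIB, chr19:38899932-38899961, plus strand, 28 bases before the start: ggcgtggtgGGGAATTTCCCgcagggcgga
NFKBID, chr19:35900613-35900642, minus strand, 92 bases before the start: agcgcgacccGGGGACTCCCaggcctgtgg
NFKBID, chr19:35899922-35899951, minus strand, 198 bases before another start: gggctgagcaGGAATTCCCCttgcgcgggg
A match is a description of the letters and not evidence of binding in these cells. The whole 250-base window of NFKBIA, the textbook feedback target of the pathway, is given because that gene was the most abundant of the 10 per length of exon in every group (chr14:35404750-35404999, minus strand).
NFKBIA: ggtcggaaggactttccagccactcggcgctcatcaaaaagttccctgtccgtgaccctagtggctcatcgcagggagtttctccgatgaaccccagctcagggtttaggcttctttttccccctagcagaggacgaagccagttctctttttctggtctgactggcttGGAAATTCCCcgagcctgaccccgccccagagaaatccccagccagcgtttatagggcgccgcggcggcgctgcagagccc

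In the deposited tables, which use the hg19 build, the subunit genes lie at chr4:103422485-103538458 (NFKB1), chr10:104153866-104162280 (NFKB2), chr2:61108655-61158744 (REL), chr11:65421066-65430564 (RELA) and chr19:45504687-45541451 (RELB). The inhibitor genes lie at chr14:35870716-35873954 (NFKBIA), chr19:39390339-39399532 (NFKBIB), chr6:44225902-44233499 (NFKBIE), chr19:36378554-36393204 (NFKBID) and chr19:45250961-45263300 (BCL3). NFKB1 has 110103 bases of intron, the most of the 10, and NFKBIA has 866, the fewest. REL overlaps the genes RNU4-51P and RP11-373L24.1, so that 54.6% of its exon reads fell on stretches of its own. NFKB1 overlaps AF213884.3 and NFKBIB overlaps SIRT2, yet at least 99.8% of their exon reads fell on stretches of their own. Whether the counting used strand is not given in the sources used here. All 10 genes passed the filter on low counts for exon and for intron reads.

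Libraries held 42439957 to 63606344 exon reads, except for parent DMSO replicate 1 with 135592046. That library also had the lowest share of intron reads, 26.31% against 28.65 to 33.55% in the others, and stood apart from its 2 partners in its counts. The library name in its label follows another pattern than the others, and whether it was prepared apart or joined from several runs is not given in the sources used here. Calls that changed with it are given with and without it. SLFN11 itself was read at 117, 107 and 112 exon CPM (counts scaled by edgeR to a common library size) in parent DMSO libraries and at 88.7, 86.1 and 85.9 in knockout DMSO libraries. The knockout libraries were thus lower without overlap but far from 0 (log2 difference -0.37 ± 0.05 SE, adjusted p = 0.000133), while SLFN11 intron reads were higher (0.58, adjusted p = 9.43e-07); reads over the whole gene do not check the protein. All 8 T lymphoblast markers were detected, at a summed 1110 to 1250 CPM in parent DMSO, 838 to 861 in parent camptothecin, 1290 in knockout DMSO and 1050 to 1120 in knockout camptothecin libraries. The summed markers of other lineages stayed at or below 45.5 CPM for B cells (MS4A1 without a listed value), 5.03 for myeloid, 0.961 for erythroid (HBB without a listed value) and 9.33 for epithelial and fibroblast cells (COL1A2 at 0). In RNA from whole cultures, fewer cells of a kind and less RNA per cell cannot be told apart.

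Unless DESeq2 or limma is named, each log2 change and adjusted p comes from edgeR's quasi-likelihood test with Benjamini-Hochberg adjustment over all genes tested. A gene is said to rise or fall only below an adjusted p of 0.05. The scale mattered for all genes but not for the direction of any called change of the 10. With library size alone in place of TMM factors, the median log2 change of all genes went from 0.01 to 0.14 in parent cells and from 0.02 to 0.17 in knockout cells. The share of called genes that were higher then went from 49.7 to 67.2% for the parent response, from 44 to 78.6% for the knockout response, and from 29.1 to 46.3% for the difference of responses. For the genotypes it went from 52.6 to 72.7% untreated and from 47.9 to 69.3% treated. For intron reads it went from 45.9 to 69.5% for the parent response, from 46.4 to 70.4% for the knockout response, from 51.6 to 43.3% for the difference, from 55.9 to 73.5% for the untreated and from 54.3 to 62.2% for the treated genotypes.

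Levels were compared between genes as exon CPM per kilobase of exon. The exon length is the one listed for each gene and may differ from that of the transcripts in these cells. Orders between genes depend on it, and REL reads include those shared with overlapping genes. In untreated parent cells NFKBIA stood highest at 19.2 ± 3.32 (SD, n = 3 here and for each group below), followed by NFKBIB at 9.77 ± 1.01 and NFKB1 at 9.73 ± 1.29, which did not differ beyond their spread. RELA (6.48 ± 0.505), NFKBIE (5.07 ± 0.0321) and NFKBID (3.20 ± 0.153) came next. REL at 2.49 ± 0.0571 and NFKB2 at 2.42 ± 0.0453 did not differ beyond their spread, although REL was above NFKB2 in each library. RELB at 0.950 ± 0.263 and BCL3 at 0.0878 ± 0.0102 were the lowest. After camptothecin the order in parent cells began with NFKBIA (62.9 ± 1.19), NFKB2 (19.4 ± 0.274), NFKBIB (17.1 ± 1.13) and RELB (16.6 ± 0.683). NFKBIB and RELB did not differ beyond their spread. RELB and NFKB2, the non-canonical pair, had thus passed NFKB1 at 9.48 ± 0.0826 and RELA at 9.11 ± 0.0815, and NFKBIE (8.08 ± 0.414), REL (6.39 ± 0.279), NFKBID (4.13 ± 0.0726) and BCL3 (0.625 ± 0.0557) followed.

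Untreated knockout cells had nearly the same order as untreated parent cells, with NFKBIA at 18.8 ± 0.841, NFKBIB at 9.88 ± 0.866, RELA at 6.60 ± 0.0446 and NFKB1 at 5.69 ± 0.252. NFKBIE (5.15 ± 0.22), NFKBID (3.74 ± 0.194), NFKB2 (3.40 ± 0.251), REL (2.73 ± 0.0757), RELB (1.14 ± 0.0657) and BCL3 (0.0904 ± 0.0115) followed, and NFKB1 had moved below RELA. After camptothecin NFKBIA (26.5 ± 2.14), NFKBIB (10.9 ± 0.572), RELA (7.56 ± 0.154) and NFKB2 (6.59 ± 0.36) led in knockout cells. NFKBIE (5.01 ± 0.154), NFKB1 (4.34 ± 0.173), REL (3.92 ± 0.377), NFKBID (3.87 ± 0.204), RELB (3.40 ± 0.374) and BCL3 (0.109 ± 0.0174) came after them. REL, NFKBID and RELB did not separate beyond their spread there, and RELB was above REL in 1 of the 3 libraries.

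**Figure D1:**
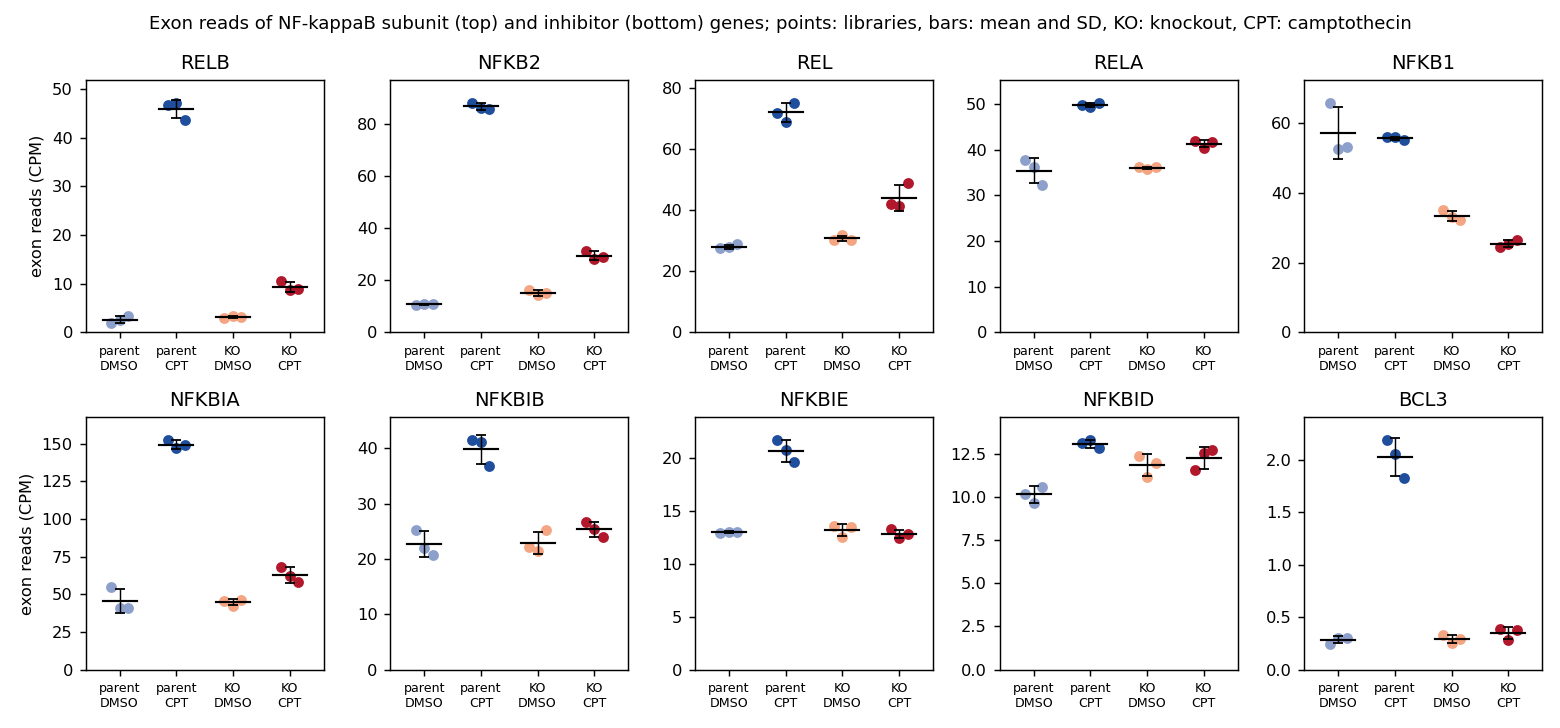
Exon reads in CPM for each of the 10 genes (y axis, from 0) in the 4 groups (x axis); each point is 1 library, and the bars give the mean and SD of 3 libraries. Every gene but NFKB1 has its highest values in the 3 parent camptothecin libraries, and NFKB1 is lower in all 6 knockout libraries than in any parent library.

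In parent cells camptothecin raised the exon reads of 9 of the 10 genes and lowered none. Across all 23546 genes, 33.9% were called in either direction and 16.8% as higher. The median log2 change of the 10 was 1.08, against 0.01 for all genes. The same 9 genes had no overlap between DMSO and camptothecin libraries, as did 22.7% of all genes on the higher side. The 8 T lymphoblast markers moved the other way, with 7 called lower, against 17.1% of all genes. Their part in these results was not tested.

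RELB, the subunit that pairs with p52 and has its own activation domain, changed the most. Its exon CPM was 1.94, 2.54 and 3.38 in DMSO libraries and 46.7, 47.2 and 43.7 in camptothecin libraries. The treated libraries lay far above the untreated ones, by 18-fold (log2 4.17 ± 0.15, adjusted p = 5.82e-12), and by log2 3.96 without parent DMSO replicate 1. NFKB2, which codes for the p100 precursor of p52, went from 10.63, 11.02 and 10.92 CPM to 88.4, 86.4 and 86.1 CPM. Both groups were tight, and the rise was 8.02-fold (log2 3.0 ± 0.07, adjusted p = 3e-14).

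REL, the c-Rel subunit of lymphocytes, went from 27.5, 28.0 and 28.7 CPM to 71.8, 68.8 and 75.1 CPM. The groups did not overlap, and the rise was 2.56-fold (log2 1.36 ± 0.07, adjusted p = 3.9e-10); over the stretches that no other gene overlaps it was log2 1.43. RELA, the p65 subunit that carries the main activation domain of the canonical dimer, rose less. It was read at 37.7, 36.1 and 32.3 CPM before and at 49.78, 49.35 and 50.24 CPM after camptothecin. That is a 1.41-fold rise (log2 0.49 ± 0.06, adjusted p = 1.16e-05) without overlap.

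NFKB1, which codes for p105 and its product p50, was the 1 member not called. Its exon CPM was 65.9, 52.5 and 53.1 in DMSO and 55.9, 55.9 and 55.1 in camptothecin libraries. The groups overlapped, with the highest value in parent DMSO replicate 1 (log2 -0.04 ± 0.08, adjusted p = 0.743). Leaving out each library in turn gave log2 values from -0.10 to 0.08. Counted over the whole gene, introns included, NFKB1 rose (log2 0.41, adjusted p = 0.000558), and its intron reads are described further on.

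Among the inhibitors, NFKBIA (IkappaB alpha, which pulls NF-kappaB off DNA and out of the nucleus) was the most abundant. Its exon CPM was 54.6, 40.7 and 41.1 in DMSO and 152, 147 and 149 in camptothecin libraries. All treated libraries were well above the untreated ones, by 3.27-fold (log2 1.71 ± 0.10, adjusted p = 1.12e-09). BCL3, an atypical nuclear family member that works with p50 and p52 homodimers, went from 0.246, 0.306 and 0.301 CPM to 2.19, 2.06 and 1.83 CPM. The rise was 7.20-fold (log2 2.85 ± 0.26, adjusted p = 2.61e-07), but from few reads, at least 13 per library. Its level after camptothecin was still the lowest of the 10 genes.

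NFKBIB (IkappaB beta) went from 25.3, 22 and 20.8 CPM to 41.5, 41.1 and 36.8 CPM. NFKBIE (IkappaB epsilon) went from 12.9, 13.0 and 13.0 CPM to 21.7, 20.7 and 19.5 CPM. NFKBID, a nuclear atypical inhibitor, went from 10.2, 9.63 and 10.6 CPM to 13.1, 13.3 and 12.8 CPM. None of the 3 overlapped between groups, and their rises were smaller than that of NFKBIA. They came to 1.75-fold for NFKBIB (log2 0.81 ± 0.09, adjusted p = 1.63e-06), 1.59-fold for NFKBIE (log2 0.67 ± 0.07, adjusted p = 2.32e-06) and 1.29-fold for NFKBID (log2 0.37 ± 0.08, adjusted p = 0.00215).

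**Figure D2:**
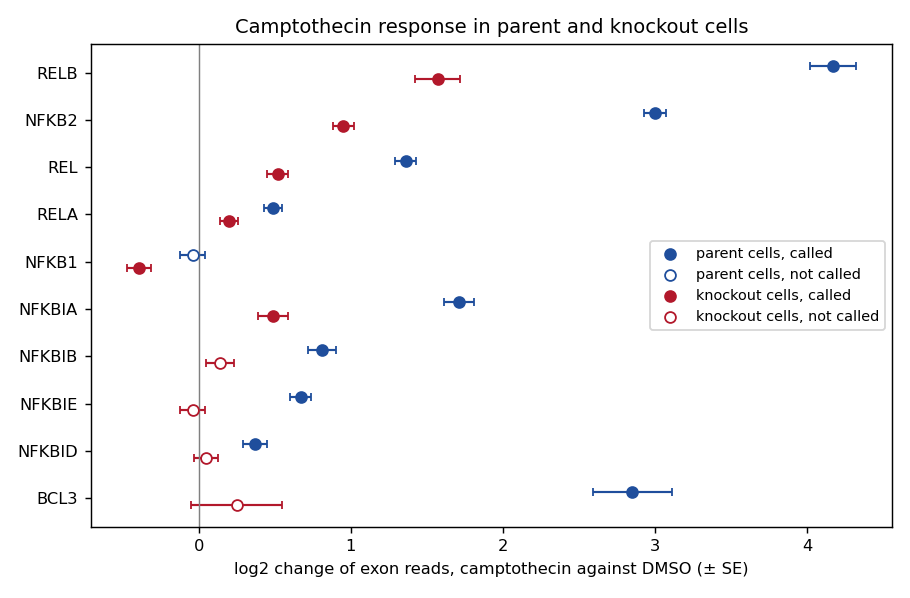
Log2 change of exon reads between camptothecin and DMSO (x axis, with SE) for the 10 genes in parent cells (blue) and knockout cells (red); filled points passed an adjusted p of 0.05. In parent cells the changes run from -0.04 for NFKB1 to 4.17 for RELB, and in knockout cells from -0.39 for NFKB1 to 1.57 for RELB.

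In knockout cells camptothecin raised 5 of the 10 genes (RELB, NFKB2, REL, NFKBIA and RELA) and lowered NFKB1. Of all genes 16.6% were called, 7.3% higher and 9.28% lower, and the median log2 change of the 10 was 0.22. Of the 8 T lymphoblast markers 4 were called lower here; their part was not tested. RELB again led, from 2.95, 3.31 and 3.20 CPM to 10.5, 8.61 and 8.94 CPM. The groups did not overlap, as in 18.9% of all genes on the higher and 19.6% on the lower side, and the rise was 2.97-fold (log2 1.57 ± 0.15, adjusted p = 1.01e-06). NFKB2 went from 16.46, 14.26 and 14.97 CPM to 31.4, 28.3 and 28.9 CPM, a 1.94-fold rise (log2 0.95 ± 0.07, adjusted p = 3.46e-08) without overlap.

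REL went from 30.3, 31.7 and 30.3 CPM to 41.96, 41.3 and 48.95 CPM in knockout cells (log2 0.52 ± 0.07, adjusted p = 5.78e-05). NFKBIA went from 45.3, 42.4 and 46.2 CPM to 68.3, 62.0 and 58.2 CPM (log2 0.49 ± 0.10, adjusted p = 0.00161). For both genes every treated library was above every untreated one. RELA went from 36.2, 35.8 and 36.1 CPM to 41.9, 40.3 and 41.6 CPM, also without overlap (log2 0.20 ± 0.06, adjusted p = 0.0433). This small change lost its call when 9 of the 12 libraries were left out in turn, with log2 values of 0.18 to 0.21 and adjusted p up to 0.135. It also lost it without the low-count filter (adjusted p = 0.153), with total gene reads (log2 0.11, adjusted p = 0.301) and with a replicate block (adjusted p = 0.0575).

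NFKB1 moved the other way in knockout cells, from 35.1, 33.0 and 32.2 CPM to 24.5, 25.4 and 26.5 CPM. All treated libraries lay below the untreated ones (log2 -0.39 ± 0.08, adjusted p = 0.00268), though not with total gene reads (log2 -0.18, adjusted p = 0.15). The other 4 inhibitors did not pass the test and overlapped between groups. NFKBIB was read at 22.2, 21.5 and 25.3 CPM before and 26.67, 25.41 and 24.01 CPM after camptothecin (log2 0.14, adjusted p = 0.31), but at log2 0.30 with library size alone (adjusted p = 0.00717). NFKBIE was read at 13.5, 12.5 and 13.5 CPM and then at 13.2, 12.4 and 12.8 CPM (log2 -0.04, adjusted p = 0.788). These 2 genes had risen in parent cells, as had both of the following. NFKBID had values of 12.38, 11.17 and 11.95 CPM and then 11.5, 12.5 and 12.7 CPM (log2 0.05, adjusted p = 0.749). BCL3 had values of 0.330, 0.256 and 0.292 CPM and then 0.392, 0.287 and 0.376 CPM (log2 0.25 ± 0.30, adjusted p = 0.649).

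The difference of the responses, tested as an interaction, was negative for 7 of the 10 genes: their change in knockout cells was below that in parent cells. Of all genes 6.32% were called in this comparison, 4.48% as lower. The difference was -2.60 ± 0.20 on the log2 scale for RELB (adjusted p = 3.27e-07) and -2.05 ± 0.10 for NFKB2 (adjusted p = 4.48e-10), so the fold change in knockout cells was 6.08 and 4.14 times smaller. BCL3 differed by -2.60 ± 0.39 (adjusted p = 0.000493), NFKBIA by -1.22 ± 0.13 (adjusted p = 1.75e-05) and REL by -0.84 ± 0.10 (adjusted p = 3.6e-05). NFKBIE differed by -0.71 ± 0.11 (adjusted p = 0.00042) and NFKBIB by -0.66 ± 0.12 (adjusted p = 0.003).

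The other 3 members had negative differences that missed the threshold, each with an unadjusted p below 0.05. They were -0.35 ± 0.11 for NFKB1 (adjusted p = 0.078), -0.29 ± 0.09 for RELA (adjusted p = 0.0608) and -0.32 ± 0.12 for NFKBID (adjusted p = 0.132). Without parent DMSO replicate 1, NFKB1 (-0.47, adjusted p = 2.27e-05) and RELA (-0.34, adjusted p = 0.00121) passed as well, which made 9 of 10. In that setting 3502 of all genes were called, against 1489 with all libraries. NFKB1 passed under library-size scaling as well (-0.33, adjusted p = 0.0411), and over the whole gene (-0.59, adjusted p = 0.00312). RELA passed when only stretches free of other genes were counted (adjusted p = 0.0436). DESeq2 called the same number as edgeR, 7. The comparison shares its libraries with both responses, so its values restate the gap between them and are no further evidence.

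Without the drug the genotypes differed in 2 of the 10 genes, where 15.7% of all genes were called, 8.26% as higher and 7.44% as lower. NFKB1 was lower in knockout cells, at 35.1, 33.0 and 32.2 CPM against 65.9, 52.5 and 53.1 CPM (log2 -0.78 ± 0.08, adjusted p = 2.44e-06; -0.66 without parent DMSO replicate 1). NFKB2 was higher, at 16.46, 14.26 and 14.97 CPM against 10.63, 11.02 and 10.92 CPM (log2 0.49 ± 0.07, adjusted p = 9.14e-05). Neither gene overlapped between the genotypes, as held for 16.1% of all genes on the higher and 16.3% on the lower side; REL and NFKBID were also higher without overlap. The remaining 8 had log2 differences from -0.03 to 0.31 and missed the threshold. RELB, at 0.31 (adjusted p = 0.206), passed only without parent DMSO replicate 3 (log2 0.52, adjusted p = 0.0139) and stood at 0.10 (adjusted p = 0.696) without parent DMSO replicate 1. Without that library NFKBIA stood at 0.12 in place of -0.03 and BCL3 at -0.05 in place of 0.07, neither called. NFKBID, at 0.22 (adjusted p = 0.0811), passed only with library size alone (log2 0.31, adjusted p = 0.0189).

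With camptothecin 9 of the 10 genes were lower in knockout than in parent cells and none was higher, where 28% of all genes were called, 14.6% as lower. The median log2 difference of the 10 was -0.92. Of the 8 T lymphoblast markers 6 were called higher and 1 lower in this comparison (median log2 0.39), where 13.4% of all genes were called higher. DESeq2 also called 6 of these markers higher and 1 lower here, and 4 higher and 1 lower between untreated genotypes. In that untreated comparison edgeR called 8.26% of all genes higher and 7.44% lower. The part of the markers was not tested. RELB was 4.90-fold lower (log2 -2.29, adjusted p = 1.68e-09), BCL3 5.77-fold (log2 -2.53, adjusted p = 1.25e-06) and NFKB2 2.95-fold (log2 -1.56, adjusted p = 2.9e-11). NFKBIA (log2 -1.25), NFKB1 (log2 -1.13), REL (log2 -0.71), NFKBIE (log2 -0.69) and NFKBIB (log2 -0.65) were also lower. RELA was lower by the least (log2 -0.27, adjusted p = 0.00362; -0.15 and adjusted p = 0.053 with library size alone). NFKBID did not pass (log2 -0.09, adjusted p = 0.459). For all 10 genes the knockout libraries lay below the parent ones without overlap, as did 24.8% of all genes.

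Intron reads come mostly from RNA that has not yet been spliced. In parent cells 7 of the 10 genes rose in intron reads and none fell, where 26.3% of all 19908 genes tested were called, 12.1% as higher. RELB intron reads went from 5.94, 6.59 and 6.17 CPM to 73.3, 77.1 and 71.1 CPM. This was an 11.9-fold rise (log2 3.57 ± 0.14, adjusted p = 6.32e-14), the largest of the 10. NFKB2 rose by log2 2.49 ± 0.15, BCL3 by 2.60 ± 0.33, NFKBIA by 2.08 ± 0.22, REL by 1.24 ± 0.11 and NFKBIB by 0.59 ± 0.16 (adjusted p = 0.00987).

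NFKB1 was among the genes whose intron reads rose, unlike its exon reads. They went from 64.4, 61.8 and 64.8 CPM to 126, 134 and 144 CPM. No library overlapped, and the rise was 2.11-fold (log2 1.08 ± 0.10, adjusted p = 7.25e-08). RELA and NFKBIE showed the reverse pattern, with exon but not intron reads called. RELA intron reads were 14.1, 14.3 and 13.5 CPM before and 13.6, 13.7 and 13.5 CPM after camptothecin (log2 -0.04 ± 0.11, adjusted p = 0.845). NFKBIE intron reads were 14.4, 13.5 and 11.2 CPM before and 11.2, 12.1 and 12.7 CPM after (log2 -0.13 ± 0.13, adjusted p = 0.523). Both genes overlapped between the groups. NFKBID did not pass in intron reads (log2 0.25, adjusted p = 0.116) but did with library size alone (log2 0.37, adjusted p = 0.0187).

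In knockout cells intron reads rose for RELB (log2 1.45 ± 0.15, adjusted p = 3.38e-07), NFKB2 (log2 0.73, adjusted p = 0.00242) and REL (log2 0.49, adjusted p = 0.00306), where 16.9% of all genes were called, 7.85% as higher and 9.05% as lower. No member fell. NFKB1 intron reads were 41.6, 33.5 and 36.2 CPM before and 38.8, 37.9 and 52.5 CPM after camptothecin, which overlapped (log2 0.22, adjusted p = 0.189). NFKBIA intron reads were 2.92, 2.61 and 3.57 CPM before and 4.71, 4.27 and 3.20 CPM after (log2 0.42, adjusted p = 0.284). With library size alone NFKB1 (log2 0.30, adjusted p = 0.0474) and NFKBIB (log2 0.55, adjusted p = 0.0254) passed as well, which made 5 of 10. On that scale 2655 of all genes were called higher, against 1562 with TMM factors. NFKBIB (log2 0.46 and adjusted p = 0.0698 with TMM factors) also passed with DESeq2 (adjusted p = 0.0474) and without parent DMSO replicate 1 (adjusted p = 0.0401) or knockout DMSO replicate 1 (adjusted p = 0.032).

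The difference of intron responses was called for 6 of the 10 genes, all lower in knockout cells, where 5.82% of all genes were called, 2.81% as lower. It was -2.12 ± 0.20 for RELB, -1.76 ± 0.22 for NFKB2, -1.66 ± 0.33 for NFKBIA (adjusted p = 0.00393), -0.86 ± 0.15 for NFKB1 (adjusted p = 0.00108) and -0.75 ± 0.15 for REL (adjusted p = 0.00402). BCL3 differed by -1.98 ± 0.52 (adjusted p = 0.0235), a call lost without parent DMSO replicate 2 (0.0517), parent camptothecin replicate 1 (0.0513) or 2 (0.0839), knockout DMSO replicate 2 (0.112) or knockout camptothecin replicate 2 (0.0521). Between untreated genotypes only NFKB1 was called in intron reads (log2 -0.78 ± 0.11, adjusted p = 1.62e-05), where 14.6% of all genes were, 8.17% as higher and 6.43% as lower. Its exon and intron reads had the same log2 difference with all libraries, but -0.66 and -0.77 without parent DMSO replicate 1. NFKBIE (log2 -0.37, adjusted p = 0.0663) passed with DESeq2 (adjusted p = 0.0421) or without parent DMSO replicate 3 (adjusted p = 0.0263), and NFKBIA (log2 -0.39, adjusted p = 0.324) without that library (-0.63, adjusted p = 0.0498). Without parent DMSO replicate 1 these 2 differences were -0.28 (adjusted p = 0.211) and 0.03 (adjusted p = 0.963). With camptothecin 8 members were lower in intron reads of knockout cells, all but RELA and NFKBIB, where 28.6% of all genes were called, 13.1% as lower. Of these, NFKBID (adjusted p = 0.0423) lost its call with library size alone (0.0819) or without any of 6 libraries, and NFKBIE (adjusted p = 0.0128) without parent camptothecin replicate 3 (0.0534).

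**Figure D3:**
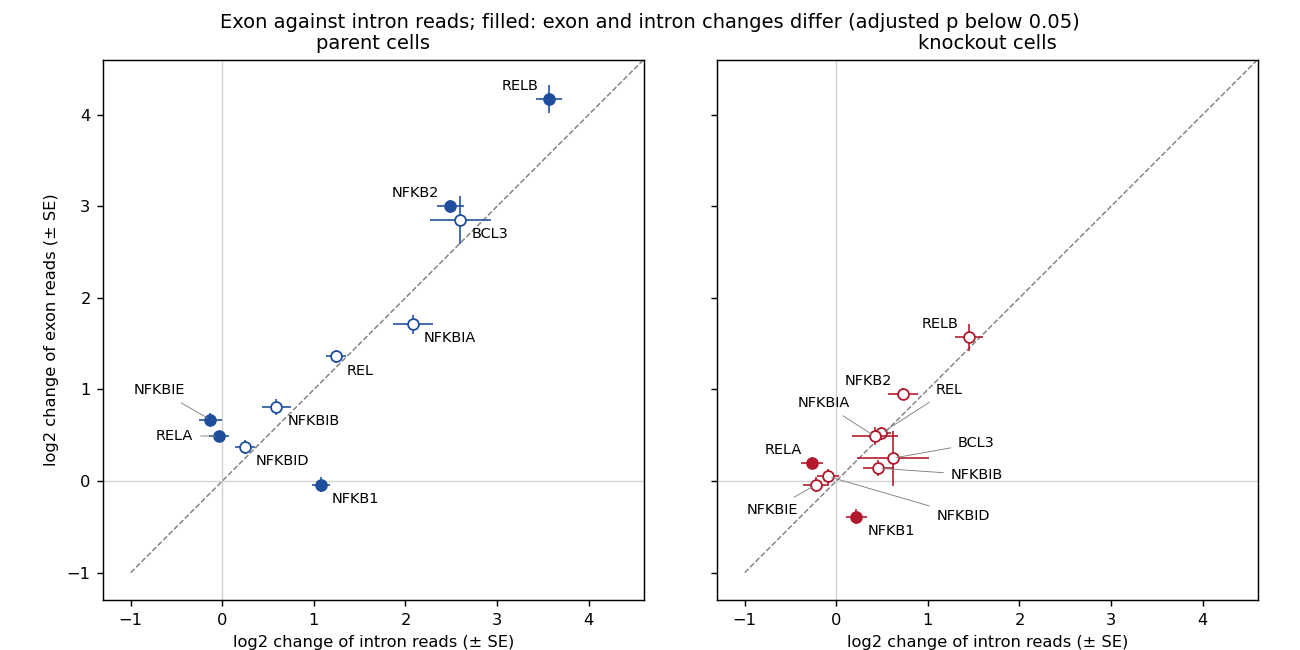
Log2 change of exon reads (y axis, with SE) against that of intron reads (x axis, with SE) between camptothecin and DMSO, for parent cells (left) and knockout cells (right); the dashed line marks equal change and filled points have an exon change that differs from the intron change at an adjusted p below 0.05. In parent cells NFKB1 lies below the line (intron 1.08, exon -0.04), and RELA, NFKBIE, NFKB2 and RELB lie above it.

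Whether exon and intron reads changed by unequal amounts was tested in 1 model over both kinds of reads, with a term for each library. In parent cells the changes differed for 5 members, where 18.8% of 17351 genes did, 9.08% with the exon change above and 9.71% with it below. NFKB1 was the clearest, with an exon change 1.09 below its intron change on the log2 scale (-1.09 ± 0.11, adjusted p = 1.05e-05). The exon change was above the intron change for NFKBIE (0.81 ± 0.15, adjusted p = 0.00112), RELA (0.55 ± 0.11, adjusted p = 0.00203), RELB (0.64 ± 0.17, adjusted p = 0.0159) and NFKB2 (0.54 ± 0.13, adjusted p = 0.0112). The call for RELB was lost with limma (adjusted p = 0.0712) and without parent DMSO replicate 1 (0.43, adjusted p = 0.0932) or parent camptothecin replicate 1 (adjusted p = 0.0553). That for NFKB2 was lost without parent camptothecin replicate 3 (adjusted p = 0.0523). NFKBIA, at -0.38 (adjusted p = 0.128), passed without parent DMSO replicate 1 (-0.62, adjusted p = 0.0123).

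The raw ratios show the same pattern. NFKB1 had 2.74, 1.99 and 1.88 exon reads per intron read in parent DMSO and 1.07, 0.998 and 0.895 in parent camptothecin libraries. RELA had 7.16, 5.94 and 5.50 in DMSO and 8.88, 8.59 and 8.74 in camptothecin libraries. NFKBIE had 2.39, 2.26 and 2.67 in DMSO and 4.69, 4.09 and 3.6 in camptothecin libraries. The ratio of NFKB1 fell and those of RELA and NFKBIE rose, with no overlap between groups. Those of NFKB2 and RELB also rose without overlap, and that of NFKBIA, not called with all libraries, fell without overlap. The ratios are not scaled for the share of intron reads in each library, and the share of all genes without overlap in them was not computed.

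In knockout cells 2 members had unequal changes, where 7.28% of all genes did, 2.02% with the exon change above and 5.26% with it below. NFKB1 again had an exon change below its intron change (-0.59 ± 0.12, adjusted p = 0.00433), with 2.05, 2.34 and 2.20 exon reads per intron read before and 1.47, 1.58 and 1.07 after camptothecin. RELA again had an exon change above its intron change (0.46 ± 0.11, adjusted p = 0.0145), a call lost without knockout DMSO replicate 1 (0.38, adjusted p = 0.0986) or 3 (adjusted p = 0.0531) or knockout camptothecin replicate 3 (adjusted p = 0.0692). Whether this gap differed between the genotypes was tested too. Neither edgeR nor limma called any member (0 of 10, with 0.628% of all genes called by edgeR), although 3 had an unadjusted edgeR p below 0.05: NFKB1 (0.50 ± 0.16), NFKBIB (-0.54 ± 0.22) and NFKBIE (-0.63 ± 0.21). Between untreated genotypes no member was called either, by edgeR or limma, where 0.738% of genes were, and 3 had an unadjusted p below 0.05. Between treated genotypes, where 7.44% of genes were called, NFKB1 (0.52, adjusted p = 0.0114) and NFKBIA (0.78, adjusted p = 0.00918) had higher values in knockout cells; limma did not call NFKBIA (adjusted p = 0.0676). Without parent camptothecin replicate 2 the adjusted p of NFKBIA was 0.0505, and that of NFKB1 was 0.0631 without parent camptothecin replicate 3, 0.0563 without knockout camptothecin replicate 1 and 0.0661 without replicate 2.

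The make-up of subunit RNA was described as the share of each gene in the summed exon CPM per kilobase of the 5 subunits. In untreated parent cells RELA and NFKB1, the canonical pair, made up 73.3% ± 3.1 of it, and RELB and NFKB2 made up 15.4% ± 2.2. After camptothecin the pairs stood at 30.5% ± 0.3 and 59.1% ± 0.8, so that the non-canonical pair held the larger share in all 3 libraries (58.1 to 59.6%). In knockout cells RELA and NFKB1 went from 62.8% ± 0.09 to 46.1% ± 1.1 and RELB and NFKB2 from 23.2% ± 0.54 to 38.7% ± 2. The canonical pair thus kept the larger share in all 3 treated knockout libraries. The share of REL stayed between 10 and 16.6% in all 12 libraries. These shares count RNA and not protein, and they rest on the same listed exon lengths. They follow from the changes of the single genes given above.

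**Figure D4:**
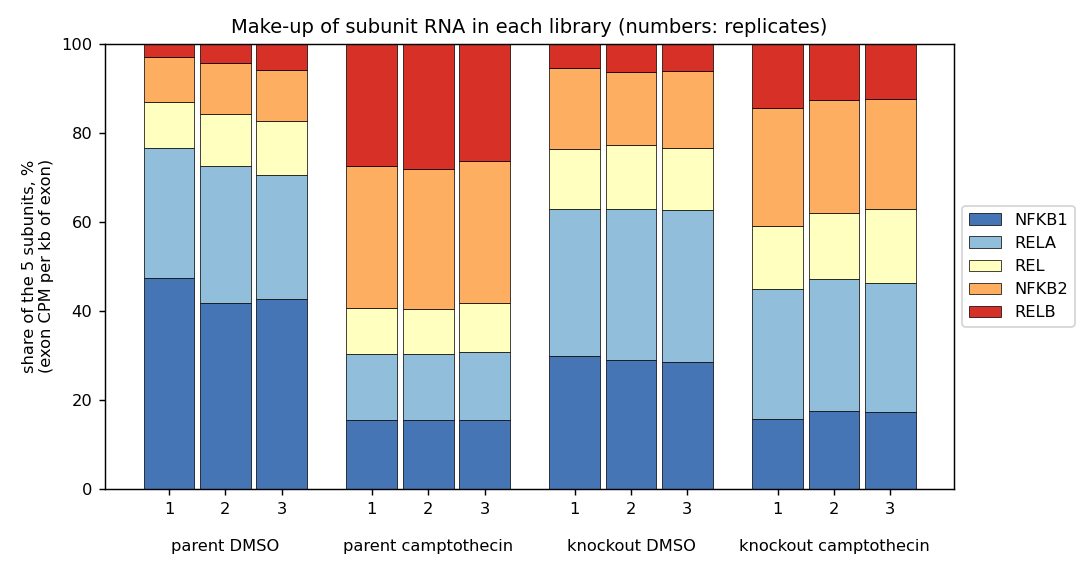
Share of each NF-kappaB subunit gene in the summed exon CPM per kilobase of the 5 subunits (y axis, percent) in each of the 12 libraries (x axis, replicates 1 to 3 of the 4 groups). RELB and NFKB2 together hold 59.1% in treated parent cells against 15.4% untreated, and 38.7% against 23.2% in knockout cells.

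Summed levels of the inhibitor and subunit genes are given as a description, without a test. The inhibitor sum includes the atypical nuclear members NFKBID and BCL3, so the ratio of the sums does not measure inhibition. The 5 inhibitor genes summed to 37.3 ± 4.3 CPM per kilobase in untreated and 92.9 ± 2.3 in treated parent cells, and the 5 subunits to 22.1 ± 1.4 and 61.0 ± 0.68. The ratio of the sums was 1.69 ± 0.087 untreated and 1.52 ± 0.021 treated. In knockout cells the inhibitors summed to 37.7 ± 1.9 and 46.4 ± 2.6, the subunits to 19.6 ± 0.42 and 25.8 ± 0.86, and the ratio was 1.93 ± 0.11 and 1.80 ± 0.10. Within the inhibitors the share of NFKBIA was 51% ± 2.9 in untreated and 67.8% ± 1.2 in treated parent cells, and 50% ± 0.52 and 57.0% ± 1.4 in knockout cells. The sums differed between treated genotypes without overlap, at 90.8 to 95.4 against 44.0 to 49.2 for the inhibitors and at 60.3 to 61.7 against 24.8 to 26.4 for the subunits.

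The other genes of the pathway were taken from 7 lists. The IKK and TAK1 kinase complexes, which phosphorylate the inhibitors, had 1 of 10 genes that rose and 3 that fell in parent cells (median log2 -0.09), against 16.8 and 17.1% of all genes. In knockout cells edgeR and DESeq2 called none, and 0 had an unadjusted edgeR p below 0.05. Without parent DMSO replicate 1 edgeR called MAP3K7 there (log2 -0.11, adjusted p = 0.0326). IKBKB, the kinase subunit of the canonical arm, went from 46.3 to 52.9 CPM up to 57.2 to 61.9 CPM (log2 0.24 ± 0.06, adjusted p = 0.00817; 0.0553 without parent camptothecin replicate 1). MAP3K7, which codes for TAK1, fell by 0.29 on the log2 scale (adjusted p = 0.00678; 0.103 with total gene reads). TAB3, a TAK1 partner, had a log2 change of -0.23 (adjusted p = 0.0408), a call lost without any of 7 libraries, and its groups overlapped. It was also lost under library-size scaling (-0.11, adjusted p = 0.353) and over the whole gene (-0.12, adjusted p = 0.302).

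In the non-canonical arm 7 of the 8 genes tested rose in parent cells and 1 fell (median log2 0.47), against 16.8 and 17.1% of all genes, and LTBR, CD40 and TNFRSF11A were too low to test. In knockout cells 2 rose and 1 fell, against 7.3 and 9.28% of all genes, and the difference of responses was called for 4, all lower, against 4.48% of all genes. MAP3K14 codes for NIK, the kinase that starts p100 processing. It was read at 7.93 to 9.46 CPM untreated and at 17.5 to 18.4 CPM treated in parent cells (log2 1.01 ± 0.09, adjusted p = 2.22e-07), and at 8.84 to 9.94 and 11.6 to 12.6 CPM in knockout cells (log2 0.38 ± 0.09, adjusted p = 0.00783). BIRC3, the cIAP2 ubiquitin ligase that keeps NIK low, rose 2.98-fold in parent cells, from 22.1 ± 4.04 to 66.1 ± 1.01 CPM (log2 1.57 ± 0.10, adjusted p = 2.84e-09). In knockout cells BIRC3 was at 34.1 ± 1.60 and 36.8 ± 2.18 CPM (log2 0.11, adjusted p = 0.51; 0.26 and 0.0206 with library size alone). TRAF1, an adaptor that joins cIAP proteins, rose from 12.2 ± 0.458 to 29.1 ± 2.5 CPM in parent cells (log2 1.26 ± 0.08) and was at 12.2 ± 0.403 and 10.8 ± 0.449 CPM in knockout cells. The responses differed by -1.46 for BIRC3 (adjusted p = 2.28e-06), -1.43 for TRAF1 (adjusted p = 3.27e-07) and -0.62 for MAP3K14 (adjusted p = 0.00684; 0.138 with total gene reads).

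Of 20 ubiquitin and feedback regulators, 10 rose and 5 fell in parent cells (median log2 0.16; 16.8 and 17.1% of all genes). In knockout cells 2 rose and 5 fell (7.3 and 9.28% of all genes), and the difference of responses was called for 3, all lower (4.48% of all genes). TNFAIP3, which codes for the deubiquitinase A20, a feedback inhibitor of IKK, rose from 128 ± 12.2 to 269 ± 4.08 CPM in parent cells (log2 1.07 ± 0.07, adjusted p = 3.08e-09). In knockout cells it was at 124 ± 3.29 and 113 ± 3.77 CPM (log2 -0.13, adjusted p = 0.204; 0.0126 without parent DMSO replicate 1), and the responses differed by -1.2 (adjusted p = 2.51e-07). NFKBIZ, a nuclear IkappaB relative of BCL3, rose from 12.4 ± 2.01 to 28.6 ± 0.652 CPM in parent cells (log2 1.2 ± 0.10, adjusted p = 1.3e-07). It was at 15.5 ± 0.855 and 15.5 ± 1.46 CPM in knockout cells, a difference of responses of -1.21 (adjusted p = 5.11e-05). PELI1, a ubiquitin ligase, rose by log2 0.56 ± 0.12 in parent cells (adjusted p = 0.00126). In knockout cells PELI1 was not called, but passed with library size alone (log2 0.38, adjusted p = 0.0194) or total gene reads (0.39, adjusted p = 0.00537). It also passed there without knockout camptothecin replicate 3 (0.36, adjusted p = 0.0414).

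**Figure D5:**
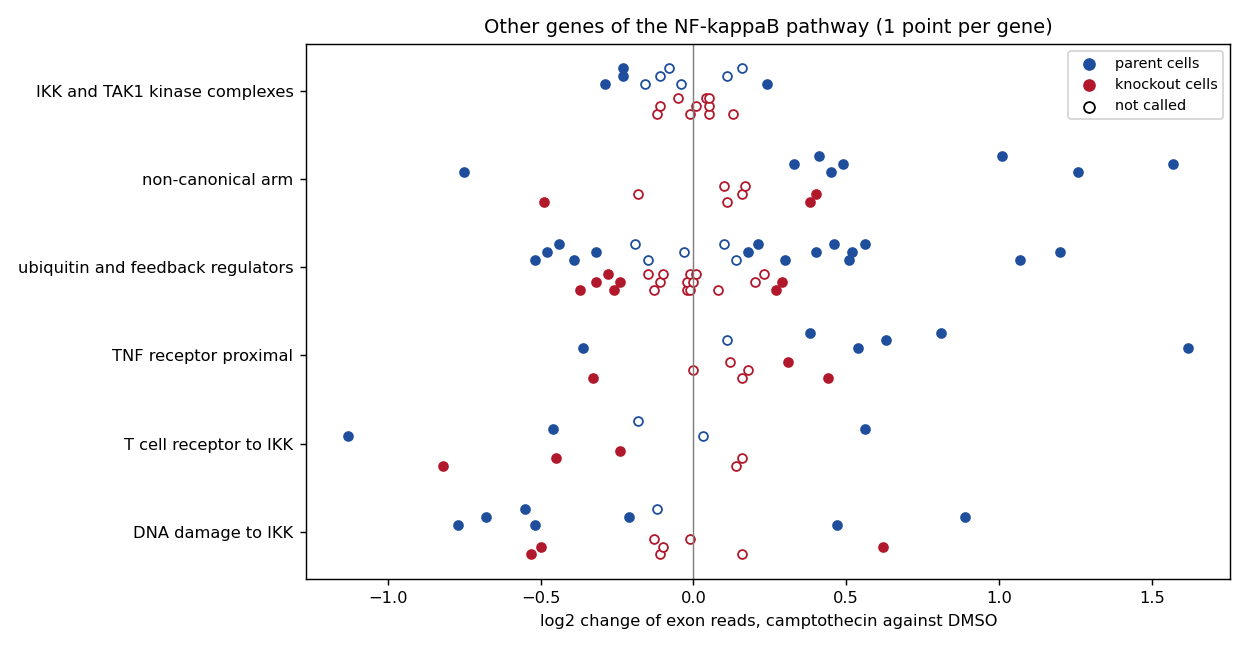
Log2 change of exon reads between camptothecin and DMSO (x axis) for the other genes of the pathway in 6 lists (y axis), in parent cells (blue, upper row of each list) and knockout cells (red, lower row); each point is 1 gene, open points did not pass an adjusted p of 0.05, and vertical scatter only separates points. The largest rises are TNF at 1.62 and BIRC3 at 1.57 in parent cells, and the largest fall is PRKCQ at -1.13 in parent cells.

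Of the 7 ligands, receptors and adaptors of the TNF system, 5 rose and 1 fell in parent cells (median log2 0.54; 16.8 and 17.1% of all genes), and 2 rose and 1 fell in knockout cells (7.3 and 9.28% of all genes). TNF, the ligand, rose from 12.6 ± 1.52 to 39.1 ± 1.22 CPM in parent cells (log2 1.62 ± 0.09, adjusted p = 7.22e-10). It was at 15.7 ± 0.661 and 17.03 ± 1.37 CPM in knockout cells (log2 0.12, adjusted p = 0.434; 0.27 and 0.0153 with library size alone), and the responses differed by -1.51 (adjusted p = 5.31e-07). The lymphotoxin genes LTB (log2 0.81 ± 0.08, adjusted p = 4.27e-07) and LTA (log2 0.63 ± 0.17, adjusted p = 0.00755) also rose in parent cells. For LTA the difference of responses was called without parent DMSO replicate 1 (-0.68, adjusted p = 0.0342) but not with all libraries. LTB rose in knockout cells too (log2 0.44, adjusted p = 0.000809), and its difference of responses was -0.37 (adjusted p = 0.0514; 0.0431 with DESeq2 and 0.000721 without parent DMSO replicate 1).

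Genes that link the T cell receptor and DNA damage to IKK moved in both directions. Of the 5 genes between the T cell receptor and IKK, 1 rose and 2 fell in parent cells (16.8 and 17.1% of all genes) and 3 fell in knockout cells (9.28% of all genes). PRKCQ, a protein kinase C of T cells, fell from 112 ± 17.6 to 51.03 ± 0.837 CPM in parent cells (log2 -1.13 ± 0.08, adjusted p = 2.49e-08) and from 103 ± 2.69 to 58.1 ± 2.11 CPM in knockout cells (log2 -0.82). The difference of its responses was 0.31 (adjusted p = 0.144), and passed with library size alone (0.33, adjusted p = 0.0335) or total gene reads (0.31, adjusted p = 0.0488). BCL10, an adaptor that relays the signal to IKK, rose in parent cells (log2 0.56 ± 0.09, adjusted p = 0.000175). The difference of BCL10 responses was not called with all libraries. It passed without parent DMSO replicate 1 (-0.5, adjusted p = 0.00271) or with a replicate block (-0.42, adjusted p = 0.0352). Of 8 genes between DNA damage and IKK, 2 rose and 5 fell in parent cells (16.8 and 17.1% of all genes), and 1 rose and 2 fell in knockout cells (7.3 and 9.28% of all genes). ATM, the damage kinase that modifies the IKK subunit IKBKG, fell from 205 ± 1.45 to 128 ± 1.84 CPM in parent and from 182 ± 4.21 to 129 ± 6.78 CPM in knockout cells. Its responses differed by 0.18 without parent DMSO replicate 1 (adjusted p = 0.0332), and were not called as different with all libraries. ERC1, an IKK scaffold, fell by 0.77 and 0.53 on the log2 scale, the latter not with total gene reads (-0.06, adjusted p = 0.686). PIDD, a p53 target that acts with IKBKG, rose by log2 0.89 and 0.62.

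PARP1 and UBE2N had differences of responses in the other direction in exon reads. PARP1, which takes part in the nuclear step, fell by 0.55 on the log2 scale in parent cells (adjusted p = 4.14e-05) and changed by -0.01 in knockout cells (difference 0.54, adjusted p = 0.00761). UBE2N, a ubiquitin-conjugating enzyme, fell by 0.52 in parent cells and changed by -0.10 in knockout cells (difference 0.42, adjusted p = 0.0155). That difference lost its call without parent camptothecin replicate 2 (adjusted p = 0.061) or 3 (0.053) or knockout DMSO replicate 3 (0.056).

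Among 14 tested examples of genes that NF-kappaB is known to drive, parent cells had 10 that rose and 2 that fell (median log2 0.69; 16.8 and 17.1% of all genes), and knockout cells had 4 and 2 (median log2 0.15; 7.3 and 9.28% of all genes). CCL3, CCL4, CCND2 and PTGS2 were too low to test. IL8 (CXCL8), a chemokine, went from 0.651 ± 0.0717 to 8.90 ± 0.286 CPM in parent cells (log2 3.75 ± 0.28, adjusted p = 2.49e-08) and from 0.122 ± 0.109 to 0.546 ± 0.0556 CPM in knockout cells (log2 2.16 ± 0.44, adjusted p = 0.0024), all low levels. Its difference of responses was -1.59 (adjusted p = 0.126 with edgeR and 0.00801 with DESeq2), and it passed without parent DMSO replicate 1 (-1.68, adjusted p = 0.0427) or knockout DMSO replicate 1 (-2.19, adjusted p = 0.00181). IER3, a stress-induced survival gene, rose by log2 2.16 ± 0.11 and 0.51 ± 0.11, a difference of -1.65 (adjusted p = 1.42e-06). CD69, an early activation antigen of T cells, rose from 57.5 ± 0.792 to 207 ± 2.19 CPM in parent cells. In knockout cells it went from 56.9 ± 0.546 to 49.3 ± 1.39 CPM (log2 -0.21, adjusted p = 0.0115), a call that was lost with library size alone (-0.05, adjusted p = 0.5) and without knockout DMSO replicate 2 (adjusted p = 0.066) or knockout camptothecin replicate 1 (adjusted p = 0.0517). Its responses differed by -2.06 (adjusted p = 2.02e-11).

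For members whose group means spanned at least 1 log2 unit, the genes with the most similar exon profile were sought among 16148 genes, by Pearson's r of log2 CPM over the 12 libraries. The libraries fall into 4 groups, so that such an r mostly compares 4 means, and it is given without a test. The closest to RELB were RHBDD2 (0.9957), SPATA5L1 (0.9947) and E2F2 (0.9946), and to NFKB2 they were NR4A1 (0.9926), SLC30A1 (0.9922) and HOOK2 (0.9902). BCL3 was closest to the immediate early genes FOS (0.9902) and ATF3 (0.9897) and to POFUT2 (0.99), and NFKBIA to MEPCE (0.9941), XXbac-BPG181M17.6 (0.9932) and KLF10 (0.993). REL was closest to RP11-373L24.1 (0.9947), with which it shares reads, then to E2F2 (0.9917) and SLC30A1 (0.988). NFKB1 had another profile, closest to DDX1 (0.9834), TAF1D (0.983) and AC005363.9 (0.9818).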

How the data were processed

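Total RNA of 12 CCRF-CEM samples was sequenced as paired ends, on 1 pooled run per the labels' protocols, although the label of parent DMSO replicate 1 names its library in another way. The submitters' processing notes name STAR 2.5.4a, Trimmomatic 0.39, Picard 2.9.2, Trim Galore 0.6.2 and the hg19 build. How reads were assigned to genes, with which annotation, is not given in the sources used here. The authors deposited raw counts of exon and intron reads per gene and library, with duplicates removed according to the deposited files. In each table up to 32 rows on the Y copy of shared X and Y regions were left out, and 182 gene names at more than 1 place were kept apart.

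Tests on these counts used edgeR 4.0.16 under R 4.3.3 (TMM factors, filterByExpr, robust quasi-likelihood fit, 1 mean per group over all 12 libraries), with Benjamini-Hochberg adjustment over 23546 genes for exon reads, 19908 for intron reads and 17351 for the model of exon against intron change. A gene was called below an adjusted p of 0.05. CPM values are counts per library size times its TMM factor. Exon depth was 42439957 to 135592046 reads. No pair of libraries agreed within sampling noise. Alternatives were library size alone, RLE factors, DESeq2 1.42.0, no filter, only the groups compared, a replicate block, unique stretches, total gene reads, limma 3.58.1 and leaving out each library. The edgeR, limma and DESeq2 fits were tested on simulated data.

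The members and lists were chosen with earlier results of these data known. The text names all 10 members and, from each pathway list, up to 3 genes with the largest parent exon change and up to 2 with the largest difference of responses among those called with a mean of at least 1 CPM. For members spanning at least 1 log2 unit it names the 3 genes with the highest Pearson's r. A pathway gene that this rule names is not reported here.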

Additional observations from a re-analysis of the deposited data

Results flagged for a closer look

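Each gene here was singled out because its response to camptothecin differed between knockout and parent cells in an interaction test (edgeR, adjusted over all genes). Values are the log2 response in knockout cells minus that in parent cells, and a negative value means a lower change in knockout cells. Among the subunits, the exon values were -2.60 for RELB, -2.05 for NFKB2 and -0.84 for REL. Among the inhibitors they were -2.60 for BCL3, -1.22 for NFKBIA, -0.71 for NFKBIE and -0.66 for NFKBIB. In intron reads the values were -2.12 for RELB, -1.76 for NFKB2, -0.86 for NFKB1, -0.75 for REL, -1.66 for NFKBIA and -1.98 for BCL3.

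NFKB1 was thus called in intron reads only, though its exon value was also negative at -0.35. NFKBIB and NFKBIE were called in exon reads only, with intron values of -0.13 and -0.09. The gap between exon and intron values was tested for these 3 genes and did not pass (adjusted p = 0.192 for NFKB1, 0.323 for NFKBIB and 0.207 for NFKBIE).

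Of the other pathway genes, exon values were -1.51 for TNF, -1.46 for BIRC3, -1.43 for TRAF1, -1.21 for NFKBIZ, -1.20 for TNFAIP3 and -0.62 for MAP3K14. Among the target examples they were -2.06 for CD69 and -1.65 for IER3. PARP1 at 0.54 and UBE2N at 0.42 differed the other way, since both fell in parent cells.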

How the results depend on the processing

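Of the values of the 10 members recomputed under alternatives, 2515 kept their direction and side of the threshold, 41 lost a call and 18 gained one. A further 55 were called under neither setting and moved, 49 of them to the opposite sign, and 1 reversed with a call. That reversal was NFKB1 in parent cells, whose exon change became 0.41 with total gene reads, which by construction include its introns. With library size alone 5967 genes were called in the knockout exon response in place of 3902. In the knockout intron response 5 members were called in place of 3, and 2655 of all genes were called higher in place of 1562. With only the compared groups in the fit, 5932 genes were called for that exon response, and 2104 in place of 3697 between untreated genotypes. DESeq2 called 2 members in place of 1 in intron reads of untreated cells, where edgeR called 14.6% of all genes. For exon against intron change, limma called 833 genes in place of 1264 in knockout cells, 17 in place of 109 for the difference, 59 in place of 128 untreated, and 791 in place of 1291 treated, with 1 member in place of 2. Beyond what their construction shows, the cause of these shifts was not tested.

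Leaving out each library in turn gave exon counts of 2519 (without knockout DMSO replicate 1) to 6635 (without parent DMSO replicate 1) for the knockout response, 903 (without parent camptothecin replicate 2) to 3502 (without parent DMSO replicate 1) for the difference, where 1489 were called with all libraries, and 2388 (without knockout DMSO replicate 2) to 4327 untreated. Intron counts ran from 2199 to 4840 around 3363 for the knockout response and from 690 to 2057 around 1158 for the difference, with the highest again without parent DMSO replicate 1. Untreated intron calls of members ran from 1 to 3, the latter without parent DMSO replicate 3. For exon against intron change the ranges were 2031 to 3424 in parent cells, 726 to 2521 in knockout cells, 15 to 623 for the difference, 50 to 222 untreated and 576 to 2808 treated. Members called there ran from 1 to 2 in knockout and in treated cells.

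Libraries with the same replicate number did not deviate together (correlations of -0.08 to 0.08 in 12 pairs), and those with unlike numbers ran from -0.13 to 0.13. With 3 libraries in each group this cannot show whether libraries of the same number shared more than the number. With a replicate block 7930 genes were called in the parent exon response, 3723 in the knockout response and 1347 for the difference. Among members the block ended the calls of RELA in the knockout exon response (adjusted p = 0.0575) and of NFKBID in treated intron reads (adjusted p = 0.0505) and changed no other. Depth limits BCL3 most, with 13 to 139 exon reads per library.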
